A study of Homo sapiens with 23 samples.

Results

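Butyrylation of histone H3 at K18 (H3K18bu) and of histone H4 at K12 (H4K12bu) was compared in SW480, a long-established human cell line of colorectal adenocarcinoma, labelled as colon epithelium. Members were the peak lists of all libraries labelled with either mark in cells given 1 mM sodium butyrate (NaBu) for 12 to 16 h, which made 4 of the 23 libraries of the series, 2 per mark. Both groups shared the cell line, the growth medium, the butyrate, and the calling against an input, and they differed in the antibody. The other libraries held propionyl marks of the same lysines in sodium propionate (NaPr), the acetyl marks in untreated and treated cells, and inputs. The labels name 2 experimental replicates per mark without saying that they came from separate cultures, so that p-values measure only the spread between these samples, which may be technical, and all values come from 1 cell line and 1 dose.

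Butyrate is made by gut bacteria from fiber and is taken up by colon epithelium as fuel. In the cell it becomes butyryl-CoA, from which acyltransferases can place a butyryl group on the lysines of histone tails, and it also inhibits histone deacetylases. A butyryl group removes the positive charge of the lysine as an acetyl group does, and acyl marks on the tails of H3 and H4 are known from promoters and enhancers of active genes. The comparison asked which regions carried one of the marks and not the other, and whether regions of H4K12bu lay within those of H3K18bu.

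The stretches of hg38 below are 200 bases of the plus strand around the summits of 5 bound regions, each the first of its class by −log10 p or rank whose window overlapped no exon. The capitals mark CG dinucleotides, because the classes differed in how many of them they held on average around the summit. WASF2 and CAMTA1 were held by both H3K18bu libraries and neither H4K12bu library. SDHAF3 was held by both H4K12bu libraries and neither H3K18bu library. NDUFA4 was held by all 4 libraries, and UQCC1 was held by all 4 with a higher rank in H4K12bu.
WASF2 (chr1:27490317-27490516, 250 bp upstream of the gene start): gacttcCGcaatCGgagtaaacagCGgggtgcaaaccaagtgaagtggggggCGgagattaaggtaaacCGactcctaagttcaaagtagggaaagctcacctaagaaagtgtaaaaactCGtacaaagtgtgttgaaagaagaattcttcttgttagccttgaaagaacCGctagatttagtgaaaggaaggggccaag
CAMTA1 (chr1:7265944-7266143, within the gene and 480590 bp from its start): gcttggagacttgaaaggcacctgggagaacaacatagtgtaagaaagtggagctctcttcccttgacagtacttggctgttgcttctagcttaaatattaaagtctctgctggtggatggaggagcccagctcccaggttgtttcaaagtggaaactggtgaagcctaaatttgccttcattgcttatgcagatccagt
SDHAF3 (chr7:97117217-97117416, 381 bp upstream of the gene start): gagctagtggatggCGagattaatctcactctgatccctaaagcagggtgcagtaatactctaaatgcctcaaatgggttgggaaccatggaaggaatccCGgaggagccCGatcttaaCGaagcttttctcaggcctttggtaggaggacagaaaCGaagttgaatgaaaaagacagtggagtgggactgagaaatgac
NDUFA4 (chr7:10940185-10940384, 132 bp upstream of the gene start): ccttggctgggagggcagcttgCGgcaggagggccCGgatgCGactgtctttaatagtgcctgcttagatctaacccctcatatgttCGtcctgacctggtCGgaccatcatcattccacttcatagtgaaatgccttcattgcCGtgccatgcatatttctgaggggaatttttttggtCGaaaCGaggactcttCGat
UQCC1 (chr20:35412127-35412326, 196 bp upstream of the gene start): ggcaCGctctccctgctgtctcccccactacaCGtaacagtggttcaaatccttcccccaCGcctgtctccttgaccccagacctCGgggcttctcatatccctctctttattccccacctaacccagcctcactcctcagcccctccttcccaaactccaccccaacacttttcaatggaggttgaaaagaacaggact
The windows at gene starts held 7 CG dinucleotides at WASF2, 5 at SDHAF3, 9 at NDUFA4 and 4 at UQCC1. The window away from gene starts, at CAMTA1, held 0. WASF2 thus held more than SDHAF3, whereas the averages over all regions of their classes were 2.52 for H3K18bu alone and 4.79 for H4K12bu alone.

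H3K18bu had more bound regions than H4K12bu in every library. The lists held 22059 and 22497 regions for H3K18bu replicates 1 and 2, and 9642 and 8158 for H4K12bu replicates 1 and 2. No H4K12bu library reached the lower H3K18bu library. At q under 0.05, 8485 and 9290 regions of H3K18bu and 1997 and 1457 of H4K12bu were left. More cells that carry a mark, more of the mark per cell and a better performing antibody cannot be told apart in these bulk lists.

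Depth did not follow the marks. In regions tested against the genome background, 25.2% to 30.9% of each list, 100% of fold values were whole numbers of fragments to within 0.1 of 1 fragment, so that the fragments kept by the caller could be read from the lists. They came to 18.5 and 16.2 per kb for H3K18bu replicates 1 and 2, and to 20.2 and 15.03 per kb for H4K12bu, with the shortest region of each list (175, 190, 170 and 180 bp) taken as the fragment length. H4K12bu thus had both the deepest and the shallowest library. The scaled background was 4.27 fragments per kb in all 4 libraries. Median fold enrichment over background was 3.502 and 3.487 for H3K18bu and 3.39 and 3.32 for H4K12bu.

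Regions of the 4 libraries were merged where they shared at least 1 bp, which gave 35169 union regions. Of these, 4852 were held by both H3K18bu and neither H4K12bu library (13.8%), and 96 were held by both H4K12bu and neither H3K18bu library (0.273%). All 4 libraries held 3214 (9.14%). H3K18bu thus took 98.1% of the one-sided regions, with a 95% Wilson interval of 97.6% to 98.4% that covers counting error only. A further 18237 regions were held by 1 H3K18bu library alone and 3398 by 1 H4K12bu library alone, so that regions seen in a single library outnumbered those seen in both replicates of either mark.

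With equal numbers, the 8158 regions of highest −log10 p from each library, the union held 16484 regions. H3K18bu alone held 938 (5.69%), H4K12bu alone 406 (2.46%) and all 4 libraries 2375 (14.4%). The share of one-sided regions held by H3K18bu was then 69.8% (95% Wilson interval 67.3% to 72.2%). The direction stayed and the size did not. Equal numbers reach down to different strengths, with a lowest −log10 p of 4.71 and 4.64 for H3K18bu and of 2.74 and 2.02 for H4K12bu. Ties at the cut were kept in order of chromosome and position, which decided for regions at 4.64 in H3K18bu replicate 2.

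**Figure D1:**
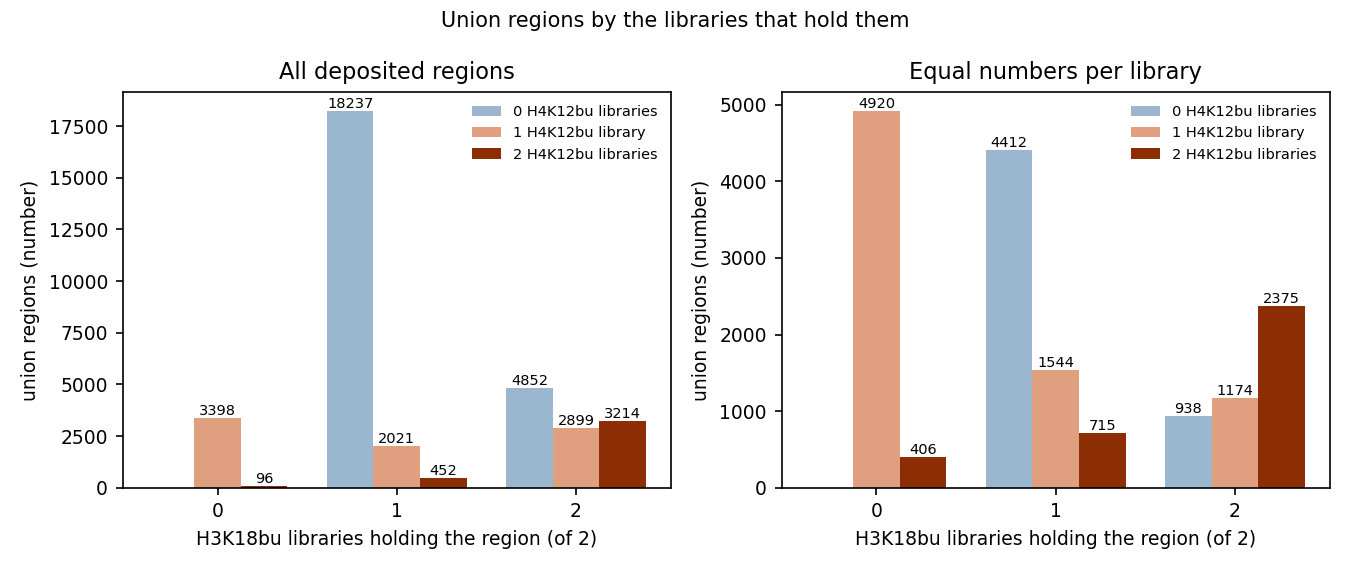
Number of union regions (vertical axis) by how many of the 2 H3K18bu libraries (horizontal axis) and of the 2 H4K12bu libraries (bar color) held them, with all regions at left and equal numbers at right. Regions held by both H3K18bu libraries and no H4K12bu library numbered 4852 and 938, against 96 and 406 for the reverse.

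The one-sided regions of the marks differed in strength. H3K18bu alone held regions with a lower-of-2 −log10 p up to 21.4 and a median of 3.30, whereas H4K12bu alone reached 4.77 with a median of 2.92. With equal numbers the medians were 5.49 and 3.03. Of the 938 H3K18bu regions alone with equal numbers, 849 (90.5%) were in neither full H4K12bu list and 0 were in both. Of the 406 H4K12bu regions alone with equal numbers, 78 (19.2%) were in neither full H3K18bu list, 187 (46.1%) were in 1 and 141 (34.7%) in both. The full H3K18bu lists go deeper than the equal numbers did and the full H4K12bu lists barely do, which sets how much each can change.

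H4K12bu regions mostly lay over H3K18bu regions. Of H4K12bu replicate 1, 83.0% overlapped a region of either H3K18bu library, and of replicate 2, 75.8%, a mean of 79.4% ± 5.08 (SD, n = 2), while the H3K18bu regions covered 0.474% of the genome. The reverse share was 37.3% and 32.3%, a mean of 34.8% ± 3.56 (SD, n = 2). Set against single libraries, H4K12bu overlapped H3K18bu in 65.8% to 78.0% of its regions and its own other replicate in 43.2% and 51.7%. The H3K18bu lists are the longer targets. With equal numbers, H4K12bu replicate 1 overlapped the H3K18bu libraries in 60.7% and 51.6% and its own replicate in 47.4%, and replicate 2 in 53.1% and 50.7% against 48.1%. The targets were still unequal, as each H3K18bu library then covered 0.179% of the genome and H4K12bu replicates 1 and 2 covered 0.099% and 0.090%. The part of this in the overlaps was not tested.

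Nesting was close to even with equal numbers. H4K12bu overlapped either H3K18bu library in 68.1% and 61.4% of its regions (64.7% ± 4.76, SD, n = 2), and H3K18bu overlapped either H4K12bu library in 63.1% and 56.7% (59.9% ± 4.48, SD, n = 2). The values of the marks overlapped. The targets covered 0.254% of the genome for H3K18bu and 0.145% for H4K12bu. H3K18bu replicates then shared 59.5% and 58.4% of their regions with each other.

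Overlap depended on rank. Of the 1000 strongest regions by −log10 p, 99.7% and 99.9% of H4K12bu replicates 1 and 2 lay over an H3K18bu region, and 97.9% and 96.1% of H3K18bu replicates lay over an H4K12bu region. In ranks 7001 to 8000, H4K12bu still overlapped in 72.7% and 51.1%, and H3K18bu in 41.3% and 31.1%. The strongest regions of either mark were thus nearly all shared, and overlap fell toward the lower ranks. The full lists of the other mark were the target, which covered 0.474% of the genome for H3K18bu and 0.156% for H4K12bu, and the part of this in the gap between the marks was not tested.

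**Figure D2:**
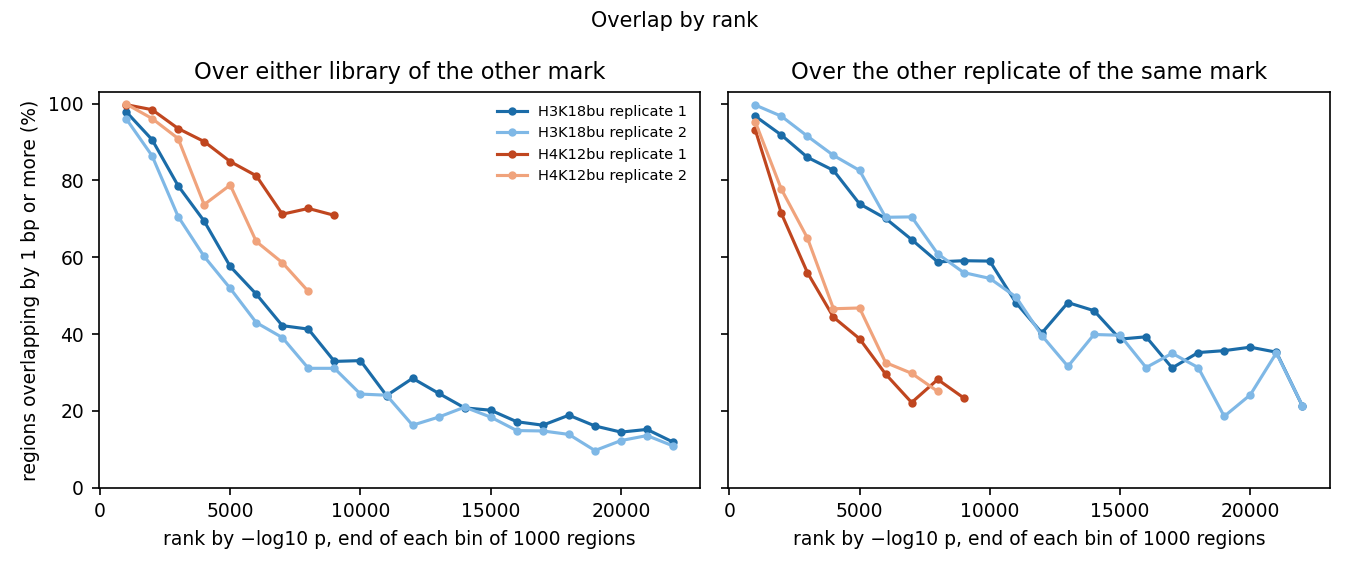
Percentage of regions (vertical axis) in bins of 1000 regions ranked by −log10 p (horizontal axis) that overlapped either library of the other mark (left) or the other replicate of the same mark (right), 1 line per library. At left, both H4K12bu lines stay above both H3K18bu lines up to rank 8000, and at right both lie below them over the same ranks. The targets are full lists, which are longer for H3K18bu.

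The same pair of lysines gave other values under the other acyl groups, with a different treatment and a different run for the propionyl lists. For the acetyl marks in NaBu, H3K18ac held 99.1% of the one-sided regions and 80.1% when 8158 regions were taken from each library. These acetyl lists were taken as NaBu from their labels, although their names carry the tag cnt, found in titles of untreated libraries. For the propionyl marks in NaPr, H3K18pr held 21.5% and, with 8158 per library, 58.4%. The nesting of H4K12 in H3K18 at 8158 regions per library was 64.7% ± 4.76 for butyryl, 72.6% ± 5.77 for acetyl and 79.1% ± 1.49 for propionyl marks (SD, n = 2 each). With all regions the order was the reverse, at 79.4% ± 5.08, 66.1% ± 41.7 and 37.3% ± 2.89 (SD, n = 2 each), from lists of very different lengths. No test of these differences was run, and antibody, treatment and run cannot be told apart for the propionyl pair.

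Within the 3214 regions held by all 4 libraries, H3K18bu had the wider called stretches and the higher fold. The marks were pulled down with different antibodies, and antibody and mark cannot be told apart here. The called stretch inside such a region had a median of 867.5 and 766.5 bp in H3K18bu replicates 1 and 2, and of 451 and 393.5 bp in H4K12bu. These made up 86.3% and 79.4% of the union region for H3K18bu, and 51.7% and 46.9% for H4K12bu. Median fold was 5.53 and 5.96 for H3K18bu and 4.01 and 3.78 for H4K12bu. Both H3K18bu folds exceeded both H4K12bu folds in 2132 regions (66.3%), and the reverse held in 45 (1.40%). At gene starts the former was 443 of 827 (53.6%), and elsewhere 1689 of 2387 (70.8%).

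Summits of the marks lay as near to each other as summits of replicates. The median distance between summits was 73 bp for the H3K18bu replicates, 87 bp for the H4K12bu replicates and 73 to 85 bp across marks. Within 200 bp of each other lay 74.8% and 72.4% of replicate summits and 71.1% to 74.1% across marks. Spearman's rho of fold over these regions was 0.57 and 0.55 between replicates and 0.45 to 0.60 across marks, values from regions that share the genome and the input and are no independent replicates.

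The 5 regions with the highest lowest-of-4 percentile by −log10 p were not at protein-coding starts. The first lay at chr1:11907716-11908274 over the U5 small nuclear RNA gene RNU5E-1, with fold 18.5 and 34.2 in H3K18bu and 14.7 and 16.7 in H4K12bu. The next lay at chr7:2873691-2874332, 29672 bp upstream of the GNA12 start, with fold 13.5 and 30.8 against 10.0 and 14.0. The other 3 lay on chromosome 8, in the lncRNA gene PCAT1 and in 2 lncRNA genes 224981 and 85422 bp from the start of TRIB1, and were 5263, 6867 and 11053 bp wide. One of these, in LINC02964, was over peaks of 2 input lists.

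Percentile ranks by −log10 p compared the marks inside the shared regions. Both H3K18bu ranks were above both H4K12bu ranks in 1684 of 3214 regions (52.4%), and both H4K12bu ranks were higher in 98 (3.05%). The longer H3K18bu lists raise the percentile of any region that is also in the shorter lists. The largest shift to H3K18bu was within PCSK5, a proprotein convertase, with percentiles 89.0 and 92.6 in H3K18bu and 0.384 and 10.2 in H4K12bu. CYP3A5, a cytochrome P450 gene of drug metabolism, followed at 460 bp from its start with fold 4.88 and 6.71 against 2.37 and 2.45. The largest shift to H4K12bu was 196 bp upstream of UQCC1, an assembly factor of respiratory complex III. Its percentiles were 29.5 and 21.2 in H3K18bu and 92.8 and 85.8 in H4K12bu. RBM5, an RNA-binding splicing regulator, was second with fold 3.35 and 2.88 against 6.58 and 4.26, over a peak of 1 input list. At each of these regions the libraries of the marks did not overlap, which is how they were chosen.

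Gene starts were counted among the regions of each rank direction. Of the 98 regions ranked higher in both H4K12bu libraries, 51.0% had a summit within 1 kb of the start of a protein-coding or lncRNA gene (95% Wilson interval 41.3% to 60.7%), against 17.6% (15.9% to 19.5%) of the 1684 ranked higher in H3K18bu and 33.5% (31.1% to 36.01%) of the others. Median width differed too, at 622, 1084 and 921.5 bp, and the percentiles come from lists of unequal length, whose part was not tested. Among one-sided regions the order of the marks was the same. H3K18bu alone had 13.9% at gene starts (12.97% to 14.9%), H4K12bu alone 37.5% (28.5% to 47.5%) and regions held by all 4 had 25.7% (24.2% to 27.3%). With equal numbers these were 14.5%, 42.6% and 24.04%. Intergenic summits made up 29.8%, 17.7% and 24.1% with all regions.

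With all regions the libraries themselves did not separate by promoter share, and replicates of one mark differed as well. H3K18bu libraries had 21.9% and 13.9% of summits at gene starts and H4K12bu libraries 25.9% and 21.4%, a difference of −5.74 percentage points (two-sided exact permutation p = 0.667, where 0.333 is the smallest that 2 against 2 allows). At q under 0.05 the mean shares were 20.9% for H3K18bu and 31.2% for H4K12bu, a difference of −10.2 percentage points. The libraries then separated (two-sided exact permutation p = 0.333). With all regions, replicate 1 was above replicate 2 in both marks. H3K18bu replicate 1 regions that were not in replicate 2 had 25.9% at gene starts, and those of replicate 2 not in replicate 1 had 8.73%. Between marks, the regions missing from the other library were richer in gene starts on the H4K12bu side in 3 of 4 pairs of libraries (24.04% against 19.2%, 32.3% against 10.4%, and 21.2% against 11.4%) and poorer in the pair of H4K12bu replicate 2 and H3K18bu replicate 1 (14.2% against 20.7%). A region held by both H3K18bu libraries has to be in replicate 2, the library with the lowest share at gene starts. The part of this in the set shares was not tested.

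**Figure D3:**
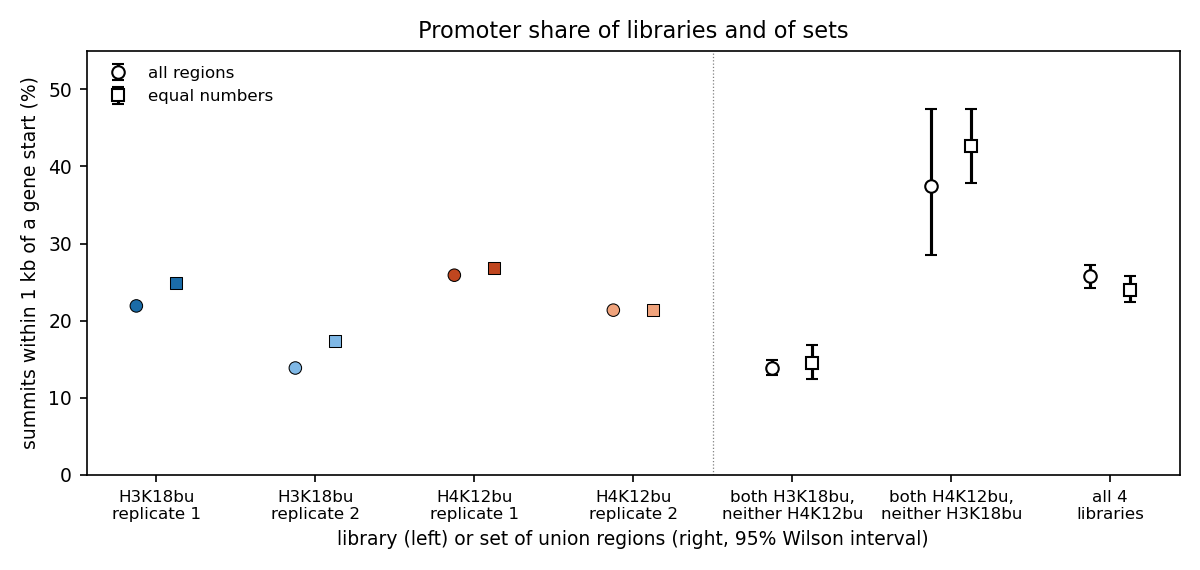
Percentage of summits within 1 kb of the start of a protein-coding or lncRNA gene (vertical axis) for the 4 libraries (left, colored) and for the sets of union regions (right, with 95% Wilson intervals that cover counting error only), with all regions as circles and equal numbers as squares. H4K12bu alone stands highest at 37.5% and 42.6%, while the libraries of the marks overlap between 13.9% and 25.9% when all regions are used.

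Sequence around the summits followed the promoter shares. CG dinucleotides in the 200 bases around the summit averaged 2.52 for H3K18bu alone, 4.79 for H4K12bu alone and 3.72 for regions of all 4 libraries, beside 2.62, 3.45 and 2.96 in windows 5000 bp away. With equal numbers the averages at summits were 2.43, 5.56 and 3.54. GC content per library was 48.0% and 45.3% for H3K18bu and 49.98% and 46.04% for H4K12bu, which overlapped (difference −1.38 points, exact permutation p = 0.667). Without H4K12bu replicate 1 the difference was 0.584 points, so its direction rested on that library.

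Width separated the libraries. Median region width was 329 and 321 bp for H3K18bu and 280 and 271 bp for H4K12bu, a difference of 49.5 bp (two-sided exact permutation p = 0.333, the smallest possible). With equal numbers, which reach down to weaker regions in H4K12bu, it was 531 and 517 bp against 294 and 271 bp. That was a difference of 241.5 bp (exact permutation p = 0.333). At q under 0.05 the means of the medians were 504 bp for H3K18bu and 471.5 bp for H4K12bu. The difference was then 32.5 bp (exact permutation p = 0.333). In the full lists, regions of 1 kb or more numbered 1469 and 1411 for H3K18bu and 255 and 174 for H4K12bu. The H3K18bu lists covered 9.97 and 9.97 Mb and the H4K12bu lists 3.45 and 2.78 Mb.

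AP-1, the dimer of FOS and JUN proteins that binds enhancers of growth and stress genes, has letters that were searched around the summits (TGACTCA or TGAGTCA, which cover both strands). Within the 200 bases at the summit, the log2 ratio of its frequency to that 5000 bp away was −0.05 and 0.38 for H3K18bu and 0.20 and 0.26 for H4K12bu (difference −0.07, exact permutation p = 1). The values of the marks overlapped, and without H3K18bu replicate 1 the difference was 0.15. Beside the summit it was more frequent. At 150 to 400 bp there were 555 and 521 matches per Mb for H3K18bu and 524 and 468 for H4K12bu, against 196, 206, 200 and 194 at 750 to 1000 bp. The ratios were 2.83 and 2.54 for H3K18bu and 2.62 and 2.42 for H4K12bu, which overlapped (two-sided exact permutation p = 0.667). With equal numbers they were 3.51 and 2.96 against 2.74 and 2.42, which did not overlap (exact permutation p = 0.333). These distances were set after the profile had been seen.

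**Figure D4:**
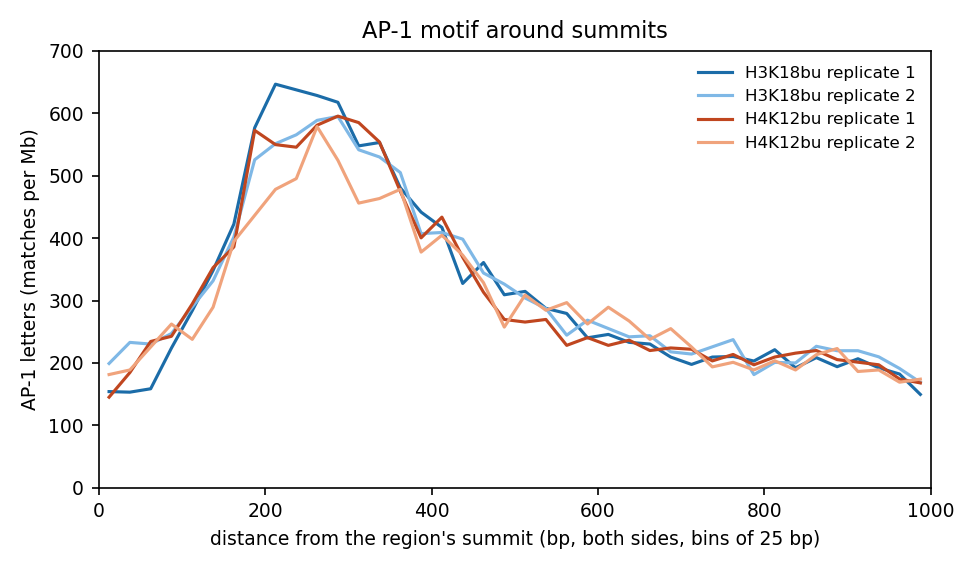
Matches of the AP-1 letters per Mb (vertical axis) by distance from the summit on both sides in bins of 25 bp (horizontal axis), 1 line per library. All 4 lines are low at the summit, rise between 150 and 400 bp and fall to about 200 per Mb beyond 750 bp.

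The sets shared this pattern where they were large. H3K18bu alone had 662 matches per Mb at 150 to 400 bp and regions of all 4 libraries had 624, against 203 and 197 at 750 to 1000 bp. H4K12bu alone had 12 matches in 96 regions (250 per Mb against 167), too few to place it, and with equal numbers 365 per Mb against 148 in 406 regions.

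Of the 20033 protein-coding genes, 3759 and 2538 had an H3K18bu region within 1 kb of the start in replicates 1 and 2, and 2117 and 1532 had an H4K12bu region. Both H3K18bu and neither H4K12bu library held 527 (2.63%), both H4K12bu and neither H3K18bu library held 28 (0.140%), and all 4 held 840 (4.19%). The order turned with equal numbers, which gave 124 (0.619%) for H3K18bu alone, 183 (0.913%) for H4K12bu alone and 571 (2.85%) for all 4. Of those 183, 160 had a region of at least 1 H3K18bu library in the full lists and 73 of both, so that 23 remained with neither. These counts depend on how many libraries must hold or lack a region. Without H3K18bu replicate 1 or 2 there were 978 or 1732 starts of H3K18bu alone and 209 or 49 of H4K12bu alone, and without H4K12bu replicate 1 or 2 there were 940 or 703 and 173 or 276. Input peaks lay within 1 kb of 38.1% of the starts held by H3K18bu alone, 14 of 28 of those held by H4K12bu alone and 39.4% of those held by all 4. Over all protein-coding starts it was 26.0%. With equal numbers these were 37.1% for H3K18bu alone, 33.3% for H4K12bu alone and 39.9% for all 4. The part of input peaks in the sets was not tested.

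lncRNA starts gave 263 for H3K18bu alone (1.39% of 18866), 8 for H4K12bu alone (0.0424%) and 417 for all 4 (2.21%). At equal numbers they gave 58 (0.307%), 56 (0.297%) and 306 (1.62%). The turn seen at protein-coding starts was therefore not seen here, where the counts were level.

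The strongest start of H3K18bu alone was that of WASF2, the WAVE protein that drives actin branching, on chromosome 1 at 27490167. Its −log10 p was 21.4 and 35.9 and its fold 8.01 and 11.4 in H3K18bu replicates 1 and 2, with no region in either H4K12bu library. UBB, a ubiquitin precursor, followed with fold 6.82 and 6.32. TNPO3, an importin for splicing factors, had 5.74 and 5.87 and lay near an input peak. TAF15, an RNA-binding protein of the FET family, had 5.78 and 5.37. CCND1, the cyclin D1 gene that drives entry into S phase, had 6.005 and 5.25.

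The other 5 named starts of H3K18bu alone came from 3 regions. MRPL13, a mitochondrial ribosome protein, and MTBP shared one with fold 5.74 and 6.08, and ST13, an HSP70 cochaperone, and XPNPEP3, a mitochondrial aminopeptidase, shared another. ZNF263, a zinc finger factor, had 6.005 and 6.37. All 10 remained H3K18bu alone with equal numbers.

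Starts of H4K12bu alone were weak. SDHAF3, an assembly factor of succinate dehydrogenase, led with −log10 p 4.81 and 4.15 and fold 3.90 and 3.16 in H4K12bu replicates 1 and 2, near an input peak. FYTTD1, an mRNA export adaptor, had fold 3.36 and 3.48. ZMPSTE24, the protease that matures lamin A, had 3.46 and 3.76. ELMOD3 and RETSAT, a retinol saturase gene, shared a region with 3.11 and 3.76. PBRM1, a subunit of the PBAF remodeler with several bromodomains, had 3.15 and 3.46. The other 4 were TRDMT1, EBF4, HNRNPR and HSF2BP, and 5 of the 10 lay near an input peak against 1 of 10 for H3K18bu.

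With equal numbers the leading starts of H4K12bu alone were other genes, each of which had a region of 1 or both H3K18bu libraries in the full lists. PJVK and PRKRA, an activator of the kinase PKR, shared a region with fold 4.27 and 4.91 in H4K12bu and 3.39 in H3K18bu replicate 1 only. RBM5, near an input peak, had 6.58 and 4.26 against 3.35 and 2.88. LSM14A, a P-body protein, had 4.60 and 3.82 against 3.41 and 3.15. At RBM5 and LSM14A the fold of both H4K12bu libraries exceeded that of both H3K18bu libraries, as the selection by rank favors.

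The 10 named starts held by all 4 libraries, chosen for strength from 840, had fold from 9.07 to 23.7. NDUFA4, a subunit of cytochrome c oxidase, had fold 18.8 and 22.8 in H3K18bu and 21.2 and 13.4 in H4K12bu, and the marks overlapped. ITPKC, an inositol trisphosphate kinase, had 11.5 and 16.6 against 9.72 and 13.2. BCKDHA, of branched-chain amino acid breakdown, and EXOSC5, of the RNA exosome, shared a region with 14.9 and 23.7 against 9.50 and 9.62. PICALM, a clathrin assembly protein, had 10.0 and 17.0 against 9.52 and 10.9. BLCAP, CALM3, DNAAF10, PNO1 and ZNF335 made up the 10, of which 6 lay near an input peak.

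**Figure D5:**
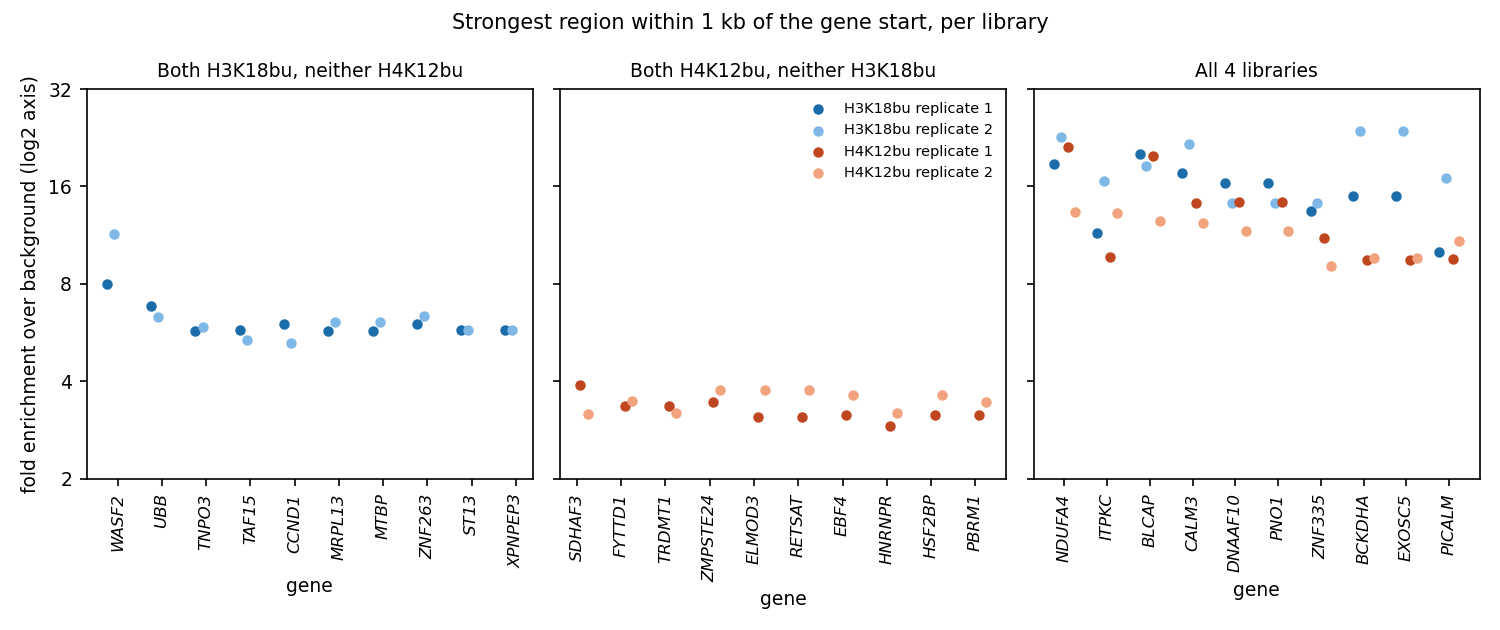
Fold enrichment over background (vertical log2 axis) of the strongest region within 1 kb of the start of the 10 named genes of each class (horizontal axis), 1 point per library that had a region. H3K18bu alone runs from 5.25 to 11.4, H4K12bu alone from 2.91 to 3.90, and genes held by all 4 libraries from 9.07 to 23.7.

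Away from gene starts, H3K18bu alone was led by a region within CAMTA1, a calmodulin-binding transcription activator, with fold 6.92 and 6.42, over a peak of 1 input list. The next lay at chr20:22712165-22712543, 126852 bp upstream of FOXA2, a pioneer factor of gut endoderm, with fold 4.88 and 6.18. It overlapped no H4K12ac list labelled NaBu. HHLA3 (over a peak of 1 input list), TNFRSF12A (the receptor of the cytokine TWEAK) and MGAT5, an N-glycan branching enzyme, held the others, with fold from 6.69 to 10.3. Among regions of H4K12bu alone, those within RAI1, RPL10 (over SNORA70), BZW2 and HMGB1 had fold from 3.11 to 4.42.

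Overlap with acetyl regions in NaBu differed between the acetyl lists. These lists were taken as NaBu from their labels, although their names carry the tag cnt of untreated libraries. H3K18ac in NaBu overlapped 87.6% and 90.3% (replicates 1 and 2) of H3K18bu alone, 80.2% and 69.8% of H4K12bu alone, and 99.6% and 99.8% of regions of all 4. H4K12ac overlapped 59.8% and 26.4% of H3K18bu alone, 62.5% and 39.6% of H4K12bu alone, and 96.8% and 90.6% of all 4. The H3K18ac lists held 116459 and 60344 regions and the H4K12ac lists 88658 and 11680, and longer lists overlap more. No region of either H4K12ac library lay over 34.7% of H3K18bu alone and 31.2% of H4K12bu alone, and none of either H3K18ac library over 4.91% and 11.5%.

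In all, 13 lists of genes were counted at their starts, beside 9.76% of all protein-coding genes held by both H3K18bu libraries and 5.34% held by both H4K12bu libraries. H4K12bu alone held no member of any list with all regions, and the background for it was 0.140%. The lists were chosen with earlier results of these data known, and the counts are descriptions with no test.

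Among the 17 AP-1 family genes, both H3K18bu libraries held 6 (35.3%) and both H4K12bu libraries 4 (23.5%). FOSB had fold 10.0 and 3.68 and FOSL1 3.14 and 5.37 in H3K18bu with none in H4K12bu. FOSL2 had 6.53 and 7.13 against 6.42 and 4.33, and FOS, near an input peak, 4.66 and 5.46 against 2.94 and 4.84. ATF7 was held by all 4 with all regions and by some with equal numbers, and JUN, JUNB, JUND, ATF2 and MAFK had regions in some of the libraries. JUN, JUND and MAFK lay near an input peak. Of the 24 ribosomal proteins, both H3K18bu libraries held 9 (37.5%) and both H4K12bu libraries 6, all of which H3K18bu held too. RPS14 had fold 8.95 and 6.48 against 7.38 and 3.74. With equal numbers all 4 libraries held 3 of these 6, and RPS3, near an input peak, became H4K12bu alone. In H3K18bu replicate 2, RPS3 and ATF7 stood at the tied −log10 p of the cut (4.64), where chromosome order decided.

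Of 24 genes of motility, adhesion and actin, both H3K18bu libraries held 5 (20.8%) and both H4K12bu libraries 0. The 5 were ACTN4, ITGB1, ITGA6, ITGB4 and MYH9, and each had a region of 1 H4K12bu library, so that none was H3K18bu alone. All but ACTN4 lay near an input peak. Both H3K18bu libraries held 3 of 24 Wnt genes and both H4K12bu libraries 1. H3K18bu alone held RNF43, a ligase that removes Wnt receptors, with fold 4.40 and 4.53, and all 4 held GSK3B, both also with equal numbers. Both genes lay near an input peak. Of 22 cyclin, CDK and inhibitor genes the counts were 2 and 1, with CCND1 H3K18bu alone and RB1 held by all 4, of which CCND1 kept its class with equal numbers. RB1 lost its class at the tied cut in H3K18bu replicate 2. Of 22 TGF-beta, SMAD and ID genes the counts were 4 and 1. BMPR2, near an input peak, was held by all 4 and, with equal numbers, by H4K12bu alone.

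Of 12 histone acyltransferases, HAT1 was H3K18bu alone and TAF1 was held by all 4. Of 17 histone deacylases, SIRT2 was H3K18bu alone and HDAC6 was held by all 4. HAT1, SIRT2 and TAF1 lay near an input peak, and with equal numbers neither HAT1 nor SIRT2 was H3K18bu alone. HDAC6 was then not held by all 4, which the tied cut in H3K18bu replicate 2 decided. Of 18 acyl-lysine readers, BRD2, a bromodomain protein, was held by all 4, with fold 6.53 and 4.29 against 5.89 and 5.55, near an input peak. Among 20 genes of short-chain acyl-CoA metabolism and butyrate transport, both H3K18bu libraries held 0 and both H4K12bu libraries held HADHA, of fatty acid beta-oxidation, with fold 8.46 and 6.01 beside 7.57 in H3K18bu replicate 1. HNF4A and HES1 of 22 intestinal lineage factors and KLF6 of 13 Kruppel-like factors were held by all 4. Of these, HNF4A lay near an input peak. Of 24 clustered histone genes, both H3K18bu libraries held 5 and both H4K12bu libraries 3. H1-3, near an input peak, was H3K18bu alone with all regions and held by none with equal numbers, and H1-2, H1-4 and H4C8 were held by all 4.

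Epithelial markers fitted the label in part. EPCAM, KRT8 and KRT18 were held by all 4 libraries and VIL1 by H3K18bu alone (with equal numbers KRT8 and VIL1 left these classes), KRT19 had 3 libraries and AXIN2 2, and CDH1, CDX1, CDX2, ELF3, GRHL2 and ASCL2 had none. EPCAM lay near an input peak. None of the 9 endothelial, fibroblast and liver markers had a region. CD14 of 5 blood markers had one in 1 library, and SYT1 of 3 neuronal markers had one in 3 libraries, near an input peak. A region at a start is not a level of expression.

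Letters at the starts of the gene sets were counted in 300 bases from 250 before to 50 after the start on hg38, on both strands. CG dinucleotides averaged 22.1 for H3K18bu alone, 23.3 for H4K12bu alone, 22.2 for all 4 and 18.9 over all protein-coding starts, and with equal numbers 19.7, 25.4 and 21.1. The cAMP response element TGACGTCA was in 5.83% of starts held by all 4, 3.42% of those of H3K18bu alone, 0 of 28 of H4K12bu alone and 2.29% of all starts. CACGTG was in 12.5%, 8.16%, 17.9% (5 of 28) and 8.36%. GGGCGG was in 61.7%, 65.5%, 67.9% and 52.4%. At starts held by all 4 the TATA box letters TATAAA were in 7.50% against 10.8% of all starts. CCAAT was in 40.2% against 35.9%. TGANTCA was in 6.31% against 6.38%, and the BANP motif in 1.19% against 0.554%.

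The median summit within 1 kb of a protein-coding start lay upstream of it in all 4 libraries. It was at −35.5 and −207.5 bp for H3K18bu and −93.5 and −177 bp for H4K12bu, and 6.49%, 5.85%, 7.73% and 6.99% lay within 100 bp of the start. Counted over protein-coding and lncRNA starts, the downstream share was 54.5% and 47.6% for H3K18bu and 53.1% and 48.7% for H4K12bu (difference 0.199 points, two-sided exact permutation p = 1). Replicate 1 was the more downstream in both marks and the values of the marks overlapped, with a difference of −3.23 without H3K18bu replicate 1 and −2.03 without H4K12bu replicate 2.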

How the data were processed

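Chromatin immunoprecipitation libraries were sequenced in pairs of reads, and the authors called peaks for each library against an input at p of 0.01, with replicates kept apart. The submitters' processing notes name bcl2fastq 2.17.1, cutadapt 1.8.1, Bowtie2 2.3.1, MACS2 2.1.0 and hg38. The deposited lists give a fold enrichment (a ratio over the local background) and −log10 p and q values per region, as the authors' caller wrote them. Peak lists hold only what passed the caller, so that a missing region is one not called. Regions were set against GENCODE 44 gene starts and hg38 sequence with Python 3.11.15, numpy 2.4.6, pandas 2.3.3, scipy 1.17.1, pysam 0.24.0 and matplotlib 3.10.9. Overlap was 1 bp or more, promoters were 1 kb to either side of a start, and equal numbers were the 8158 regions of highest −log10 p per library. Ties at the cut were kept in order of chromosome and position. Values per library were compared by exact permutation over the 6 arrangements of 4 libraries, for which 0.333 is the smallest p. The code was tested on simulated data. The study's comparison of reads between groups needs alignments, which were not used here, nor were acetyl lists of other treatments.

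Named genes were the 10 starts per class with the highest lowest −log10 p, 5 regions away from starts per mark, the 5 strongest regions of all 4 libraries and the 5 largest rank shifts per direction. Members and lists were chosen with earlier results of these data known. Some items that this rule names are not reported here.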

Additional observations from a re-analysis of the deposited data

Results flagged for a closer look

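The order of the lysines by number of regions differed between acyl groups. H3K18bu had a mean of 22278 regions ± 310 (SD, n = 2) and H4K12bu 8900 ± 1049 (SD, n = 2), a difference of 13378 in favor of H3K18bu. In NaPr, H3K18pr had 95022.5 ± 1275 (SD, n = 2) and H4K12pr 144044 ± 30423 (SD, n = 2), a difference of −49021.5. Every library moved with its group in both cases, and the difference between them was not tested. The propionyl libraries had another treatment and another run, which cannot be told apart from the acyl group.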

How the results depend on the processing

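Of 85 values under other settings, 52 kept their direction without crossing the limit set for a move, 26 moved and 7 changed direction. For the differences between marks keeping direction was the whole criterion. Width went from 49.5 to 241.5 bp with equal numbers and to 32.5 bp at q under 0.05. With equal numbers the H3K18bu share of one-sided regions was 69.8%, nesting 64.7% and one-sided gene starts 124 and 183. At q under 0.05 they were 99.9%, 96.6% and, for H4K12bu alone, 2 starts, and the AP-1 difference turned to 0.39. The promoter difference was then −10.2 percentage points. Without regions over an input peak the share was 95.1% and nesting 73.7%. Counting a region held by at least 1 replicate gave 86.9%, 2183 and 421 starts, and asking for each H3K18bu library, added after seeing the data, gave nesting of 60.4%. Nesting already counts either library, so holding by at least 1 replicate gives it no other value. Promoters of 500 bp turned the downstream difference to −1.34, and an AP-1 window of 400 bp turned its difference to 0.047. Leaving out 1 library gave a share of 77.4% to 98.7%, nesting of 66.0% to 83.0%, 703 to 1732 and 49 to 276 starts, and differences of −9.77 to −1.72 for promoters, 45 to 54 bp for width, −3.35 to 0.584 for GC, −0.28 to 0.15 for AP-1 and −3.23 to 3.63 for the downstream share. Turned values were 0.15 for AP-1 and −3.23 for the downstream share without H3K18bu replicate 1, −2.03 for the downstream share without H4K12bu replicate 2 and 0.584 for GC without H4K12bu replicate 1. Fewer libraries then have to hold or lack a region, which raises the counts. The replicate block changes only the p-value, so the differences of −5.74, 49.5, −1.38, −0.07 and 0.199 could not move. They are nevertheless counted among the 52. Exact sign flips over 2 pairs cannot give p below 0.5. The labels do not say that numbers pair the samples, and deviations of same-numbered libraries correlated at 0.133 over 3214 shared regions. With 2 libraries per mark, no exact p could reach 0.05.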

Other observations

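Shares of regions by chromosome were compared as a description, with no test. Both H4K12bu libraries had a larger share of their regions than both H3K18bu libraries on 5 of 23 chromosomes (7, 11, 19, 20 and 21) and a smaller share on 9 (3, 4, 6, 8, 9, 10, 13, 16 and 18). Chromosome 19 held 5.44% and 4.83% of H3K18bu regions and 6.93% and 5.52% of H4K12bu regions. Chromosome 4 held 2.84% and 2.70% against 2.05% and 2.44%.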
